A study of Mus musculus with 16 samples.

Results

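Mitochondrially encoded transcripts are described here across 16 PyMT mouse mammary tumours. They were taken as every gene whose symbol begins with mt-, 37 of the 55146 genes listed, and comprise 13 mRNAs, 2 ribosomal RNAs and 22 transfer RNAs. The choice rests on the symbol alone. Tumours from MMTV-PyMT mice aged 12 weeks were reimplanted in fat pad 4 of FVB mice, which were treated over 28 days. The combination group received anti-PD-L1 (2 doses a week of 5 mg/kg) plus sonidegib (20 mg/kg each day). The sonidegib group and the anti-PD-L1 group received that drug alone at the same dose, and the vehicle group received neither, with 4 libraries in each of the 4 groups. All groups, vehicle included, carry the PyMT oncogene under the MMTV promoter, which is active in mammary epithelium. Sonidegib blocks Smoothened, a signal transducer of the Hedgehog pathway, and anti-PD-L1 blocks a ligand that restrains T cells.

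Mitochondria keep a small circular genome that is copied, transcribed and translated inside the organelle. Its strands are transcribed as long precursors, and transfer RNAs cut out from between the other genes release the mRNAs and ribosomal RNAs, most of which then gain a short poly(A) tail. The mRNAs encode core subunits of complexes I, III and IV of the respiratory chain and of ATP synthase, while all other subunits, and the whole of complex II, come from the nucleus.

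The arrangement of this compact genome sets what the libraries could resolve, so 4 of its sequences are shown (GRCm38, GENCODE M21 transcripts, each on the plus strand). The gene mt-Atp8, a subunit of ATP synthase, lies at chrM:7766-7969, and the capitals mark its last 43 bases, which are also the first bases of mt-Atp6. The end of mt-Nd4l, a complex I subunit, lies at chrM:10114-10173, and its 7 capitals are shared with mt-Nd4. The longest transfer RNA, mt-Tl1, lies at chrM:2676-2750 with 75 bases, and the shortest, mt-Ts2, at chrM:11613-11671 with 59 bases.
mt-Atp8: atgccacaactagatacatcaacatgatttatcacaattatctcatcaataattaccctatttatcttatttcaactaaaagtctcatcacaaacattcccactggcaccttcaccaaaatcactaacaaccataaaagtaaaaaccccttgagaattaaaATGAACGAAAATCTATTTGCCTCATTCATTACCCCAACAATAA
mt-Nd4l end: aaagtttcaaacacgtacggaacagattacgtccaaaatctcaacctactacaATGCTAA
mt-Tl1: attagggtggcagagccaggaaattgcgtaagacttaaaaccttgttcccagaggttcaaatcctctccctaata
mt-Ts2: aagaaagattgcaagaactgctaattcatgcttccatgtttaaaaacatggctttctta
All 22 transfer RNAs were listed at 0 in all 16 libraries. They are 59 to 75 bases long and the 13 mRNAs 204 to 1824 bases, and an absence of these RNAs cannot be read from the zeros. The 13 mRNAs and the 2 ribosomal RNAs passed the filter of at least 1 FPKM in at least 4 libraries. FPKM, the deposited unit, is fragments per kilobase of transcript, scaled to the number of mapped fragments of the library.

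Each library held 33.9 to 56.2 M fragments by an approximate estimate, which puts the lowest mt-Nd4l value at about 335 fragments. The epithelial markers expected of the labelled tissue were present, with Krt8 at 172 to 697, Krt18 at 158 to 760 and Epcam at 83.8 to 423 FPKM. The labels do not say whether the tumours of a group had different donors, and p-values here reflect only how these samples vary. The library numbers run through the groups in turn, so library order cannot be told apart from treatment. Vehicle replicate 3 stood apart, with 11361 genes at 1 FPKM or more against 13107 to 14784 in the other libraries, and a median log2 deviation from the gene medians of -0.76, while the others lay at -0.13 to 0.15. In bulk tumour RNA, fewer cells of a type and less RNA per cell cannot be told apart.

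Per length, the ribosomal RNA of the large subunit, mt-Rnr2, had the highest listed level among the members. Its median was 5566 FPKM over the 16 libraries, 2 of which list it at 0. The catalytic core of complex IV followed, with mt-Co1 at a median of 3910 FPKM and mt-Co3 at 2436 FPKM. Next came mt-Atp8 at 1633, mt-Co2 at 1298, the complex I subunit mt-Nd1 at 1169 and the small ribosomal RNA mt-Rnr1 at 1163 FPKM. These were followed by mt-Atp6 at 736, the complex I subunit mt-Nd3 at 731 and mt-Cytb, the complex III subunit, at 582 FPKM. The other complex I subunits formed a lower group, with mt-Nd2 at 120, mt-Nd4 at 118, mt-Nd6 at 92.5, mt-Nd5 at 92.3 and mt-Nd4l at 81.5 FPKM. Among neighbours in this order of listed levels, only 3 steps exceeded their own spread over libraries. The ratio of mt-Cytb to mt-Nd2 was 2.10 ± 0.35 on the log2 scale (SD, higher in 16 of 16 libraries). That of mt-Rnr2 to mt-Co1 was 0.99 ± 0.68 over the 14 libraries with a value of mt-Rnr2, and that of mt-Rnr1 to mt-Atp6 was 0.58 ± 0.40.

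Levels of some members carry a second uncertainty, because near-identical copies of mitochondrial sequence lie in the nuclear genome. Of 11 such copies found among the annotated transcripts, 7 matched a member at 99% identity or more, and these lie side by side on the minus strand at chr1:24611535-24616197. The first 90 bases of mt-Co2 (chrM:7013-7102, plus strand) show the difficulty beside its copies Gm28661 (chr1:24615476-24615565, minus strand) and Gm13341 (chr2:22587873-22587962, minus strand), with capitals at the 2 bases where mt-Co2 and Gm13341 differ.
mt-Co2: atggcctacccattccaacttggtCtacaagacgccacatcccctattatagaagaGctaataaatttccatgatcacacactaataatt
Gm28661: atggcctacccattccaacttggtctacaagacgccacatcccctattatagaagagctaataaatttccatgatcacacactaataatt
Gm13341: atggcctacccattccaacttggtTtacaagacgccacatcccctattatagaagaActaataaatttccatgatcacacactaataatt
The stretch in Gm28661 is identical to mt-Co2, and Gm28661 was listed at 0.996 to 1.02 times the FPKM of mt-Co2 in the 16 libraries. Gm13341, at 95.9% identity over the gene, was listed at 0.0145 to 0.0331 times. The 5 copies that cover nearly the whole of mt-Nd4l, mt-Atp6, mt-Co3, mt-Nd3 or mt-Co2 had median ratios of 0.981 to 1.01, with single values of 0.864 to 1.12. The partial copies Gm29216 (483 bases of mt-Co1) and Gm28439 (876 bases of mt-Nd4) had ratios of 0.654 to 1.04 and 0.414 to 0.542. How fragments that match both places were assigned is not given in the sources used here. Mitochondrial and nuclear origin thus cannot be told apart for these 7 genes. The order of levels above leaves out the FPKM listed under these copies. Its steps from mt-Rnr2 to mt-Co1 and from mt-Rnr1 to mt-Atp6 therefore depend on that assignment. No copy was found among the annotated transcripts for mt-Nd1, mt-Nd6, mt-Cytb, mt-Atp8, mt-Rnr1 or mt-Rnr2. Copies outside these transcripts were not sought. On chr1, Gm10925 ends at 24614651 and Gm28661 starts at 24614885, and they match mt-Atp6 and mt-Co2, which flank mt-Atp8. The stretch between them was not searched, so mt-Atp8 cannot be called free of a copy. The 43 bases that mt-Atp8 shares with mt-Atp6 fall under the search minimum of 100 aligned bases.

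**Figure D1:**
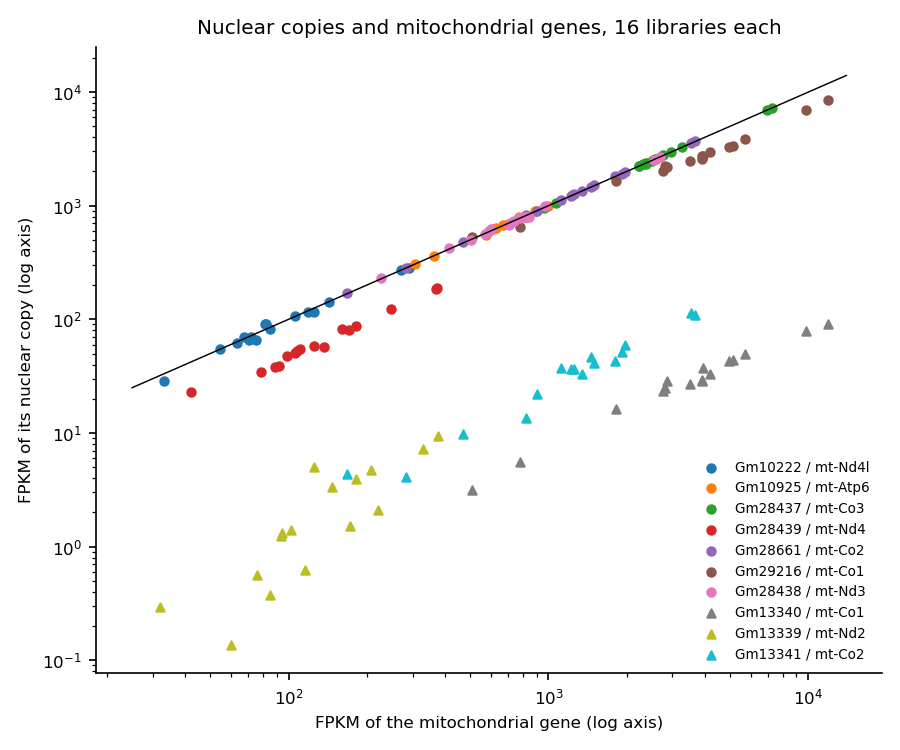
FPKM of 10 nuclear copies (y axis) against the FPKM of the matching mitochondrial gene (x axis), both on log axes, with 1 point per library, circles for copies at 99% identity or more, triangles for the others and a line at equal values. The 5 nearly complete copies lie on the line, and the triangles lie at 0.0397 times the mitochondrial gene or below.

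Between the combination and vehicle groups, 8 of the 14 members with a value in every library were higher with both drugs, at 1.38 to 2.48 on the log2 scale. They were mt-Atp8 of ATP synthase, mt-Co1 and mt-Co2 of complex IV, mt-Cytb of complex III, and mt-Nd1, mt-Nd2, mt-Nd3 and mt-Nd4l of complex I. The other 6 members did not pass. Combination replicates 2 and 4 were the 2 highest libraries for 13 of the 14 members, and all 8 calls ended when either was left out. Calls over all genes fell likewise, from 1703 to 8 without replicate 2 and to 3 without replicate 4. Vehicle replicate 4 was the highest vehicle library for 14 of 14 members and vehicle replicate 3 the lowest vehicle library for 10.

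The values of mt-Atp8 were 2364, 7361, 2667 and 6902 FPKM in combination replicates 1 to 4, 2703, 660, 1351 and 1383 FPKM with sonidegib, 1395, 2286, 1870 and 878 FPKM with anti-PD-L1, and 820, 273, 607 and 2399 FPKM with vehicle. Its combination values lay above 3 of the 4 vehicle libraries, and vehicle replicate 4 lay among the lower combination values. The difference from vehicle was 2.48 on the log2(FPKM + 1) scale (SE 0.60, limma adjusted p = 0.0342), the largest of the 14 members. The core catalytic subunit mt-Co1 stood at 2807, 11883, 3515 and 9806 FPKM in the combination libraries, 5140, 2848, 3914 and 3921 FPKM in the sonidegib libraries, 4944, 3907, 4175 and 2759 FPKM in the anti-PD-L1 libraries, and 1818, 774, 507 and 5682 FPKM with vehicle. Here combination replicates 1 and 3 lay below vehicle replicate 4 and within the range of the single drugs. Its difference was 2.04 (SE 0.62, limma adjusted p = 0.0445). The copper-binding subunit mt-Co2 stood at 1120, 3649, 1453 and 3549 FPKM in the combination libraries, 1964, 820, 1341 and 1224 FPKM with sonidegib, 1806, 1502, 1255 and 900 FPKM with anti-PD-L1, and 469, 284, 168 and 1917 FPKM with vehicle. Its combination and vehicle values overlapped through vehicle replicate 4, and the difference was 2.23 (SE 0.60, limma adjusted p = 0.0357).

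For mt-Cytb, which carries electrons through complex III, the combination libraries held 428, 2138, 746 and 1934 FPKM, the sonidegib libraries 829, 350, 569 and 467 FPKM, the anti-PD-L1 libraries 743, 797, 595 and 389 FPKM, and the vehicle libraries 237, 187, 101 and 887 FPKM. Again vehicle replicate 4 exceeded combination replicates 1 and 3, and the difference was 2.09 (SE 0.59, limma adjusted p = 0.0377). The complex I subunit mt-Nd1 had 1221, 3095, 1222 and 2903 FPKM with the combination, 1439, 748, 997 and 972 FPKM with sonidegib, 1149, 1299, 1190 and 811 FPKM with anti-PD-L1, and 624, 365, 218 and 1635 FPKM with vehicle. Vehicle replicate 4 again lay above combination replicates 1 and 3. No nuclear copy of this gene was found, and its difference was 1.84 (SE 0.51, limma adjusted p = 0.0373). A gap between the combination and vehicle groups was seen for mt-Nd3 alone, with 809, 2556, 776 and 2680 FPKM in the combination libraries, 972, 505, 571 and 724 FPKM with sonidegib, 703, 826, 844 and 591 FPKM with anti-PD-L1, and 603, 227, 415 and 737 FPKM with vehicle. Its difference was 1.67 (SE 0.46, limma adjusted p = 0.0369). No overlap in that direction was found for 3.12% of all tested genes, so 1 of 14 members is not far from this background. The remaining called members were mt-Nd2, at 253 ± 118 FPKM with the combination and 96.9 ± 84.1 FPKM with vehicle, and mt-Nd4l, at 193 ± 103 FPKM with the combination and 74.4 ± 47.7 FPKM with vehicle (SD, n = 4 each). Among the sonidegib libraries mt-Nd2 was at 207, 84.5, 94.3 and 93.9 FPKM, with replicate 1 far above the rest.

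**Figure D2:**
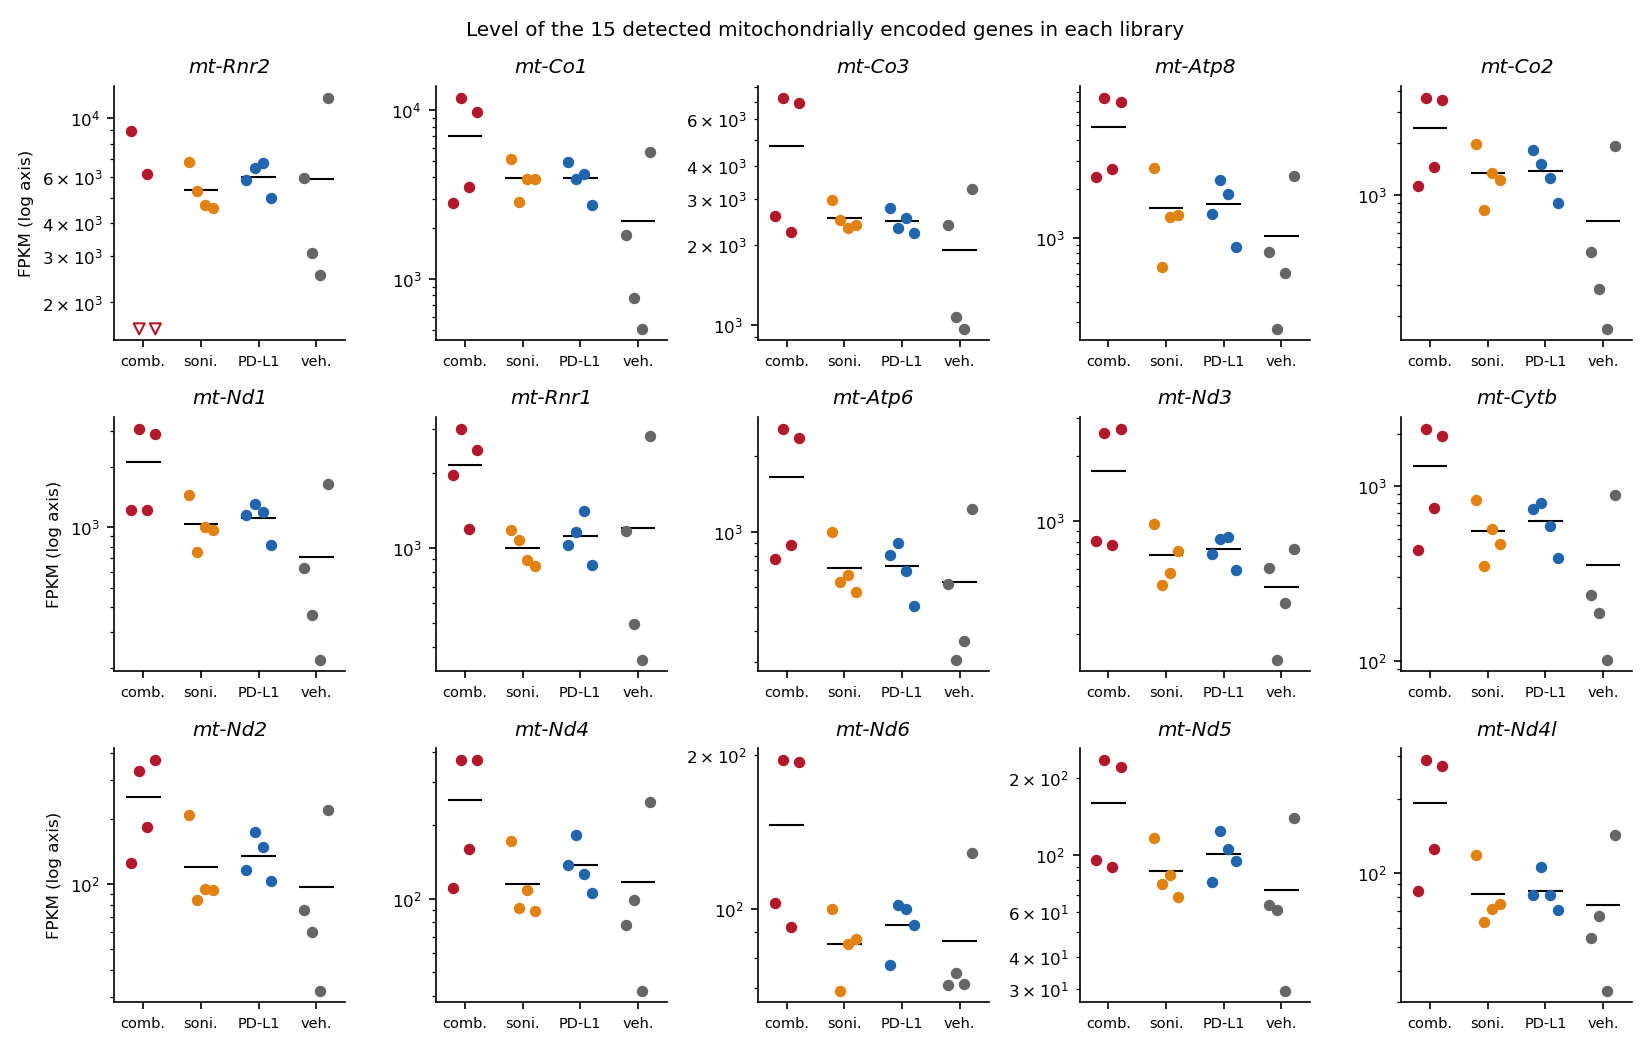
FPKM (log axis, a separate range in each panel) of the 15 detected members in the combination, sonidegib, anti-PD-L1 and vehicle libraries, with 1 point per library in replicate order and a line at the arithmetic mean of 4 where none is 0. Combination replicates 2 and 4 stand above the other libraries in nearly all panels, vehicle libraries spread widely, and open triangles mark the 2 libraries in which mt-Rnr2 was listed at 0.

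The 6 members that did not pass had differences of 0.72 to 1.41, with limma adjusted p-values of 0.0563 to 0.105. They were mt-Atp6 (1.41, SE 0.47), mt-Co3 (1.30, SE 0.46), mt-Nd4 (1.22, SE 0.47), mt-Rnr1 (1.22, SE 0.51), mt-Nd5 (1.18, SE 0.41) and mt-Nd6 (0.72, SE 0.30). The smallest belonged to mt-Nd6, the complex I subunit on the other strand of the genome from the rest of the mRNAs. It had 103, 196, 92.0 and 194 FPKM in the combination libraries, 99.98, 69.1, 85.4 and 87.4 FPKM with sonidegib, 77.7, 102, 99.9 and 93.0 FPKM with anti-PD-L1, and 70.9, 74.7, 71.1 and 129 FPKM with vehicle. Vehicle replicate 4 stood far above the other 3 vehicle libraries, and combination replicates 1 and 3 lay below it. The whole range of mt-Nd6 over the 16 libraries was 2.84 times, against 27.0 times for mt-Atp8. Across the 14 members the difference from vehicle followed the mean level with a Spearman rho of 0.565, and GC content with 0.143, as a description over genes that share libraries.

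Over all 15105 genes tested, 11.3% were called between combination and vehicle and 10.3% were called higher, beside 8 of 14 members. Members are cut from shared precursors and share libraries, so 8 of 14 is not a count of separate observations. The median difference was 1.50 for the members and 0.26 for all genes. With median-of-ratios scaling, the median of all genes was 0.0096, the members' median was 1.15 with 14 of 14 positive, and 7 members were called.

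**Figure D3:**
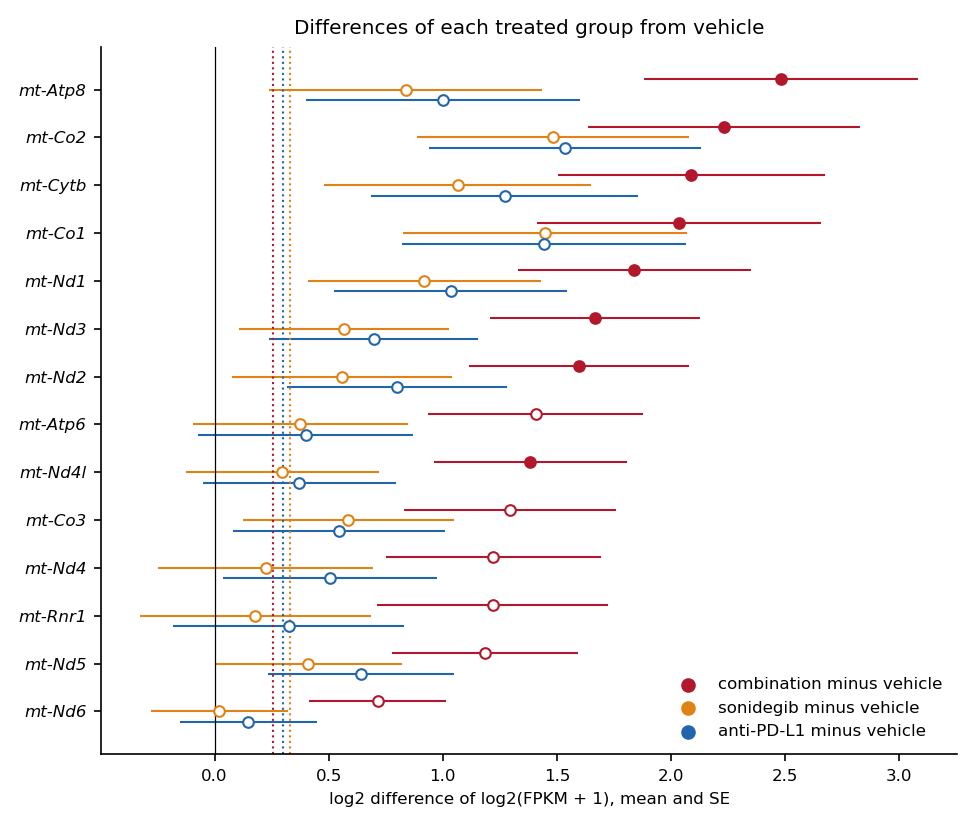
Differences of the 14 tested members from vehicle on the log2(FPKM + 1) scale (x axis) with their SE, for combination, sonidegib and anti-PD-L1, with filled points for limma adjusted p under 0.05 and dotted lines at the median of all tested genes. Filled points occur for the combination alone, at 1.38 to 2.48, and the differences of the single drugs run from 0.02 to 1.54, some of which turn negative with median-of-ratios scaling.

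Leaving out vehicle replicate 1, 2 or 3, or combination replicate 2 or 4, took the count of called members to 0, and 10 to 13 members then had an unadjusted p under 0.05, as did 23.7 to 30.8% of all genes. Over all genes, 10, 6 and 3 were called without vehicle replicate 1, 2 or 3, and 8 and 3 without combination replicate 2 or 4. The count of called members was 14 when vehicle replicate 4 was left out, beside 33.0% of all genes called. It was 12 without combination replicate 1, beside 28.2%, and 4 without combination replicate 3, beside 3.45%. Without combination replicates 2 and 4 together, a choice made after seeing the data, no member was called, and the members' median was 0.80 with adjusted p-values of 0.587 to 0.782. All 14 differences were positive there. Of the members 2 had an unadjusted p under 0.05, and over all genes 0 were called and 981, or 6.60%, had an unadjusted p under 0.05.

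**Figure D4:**
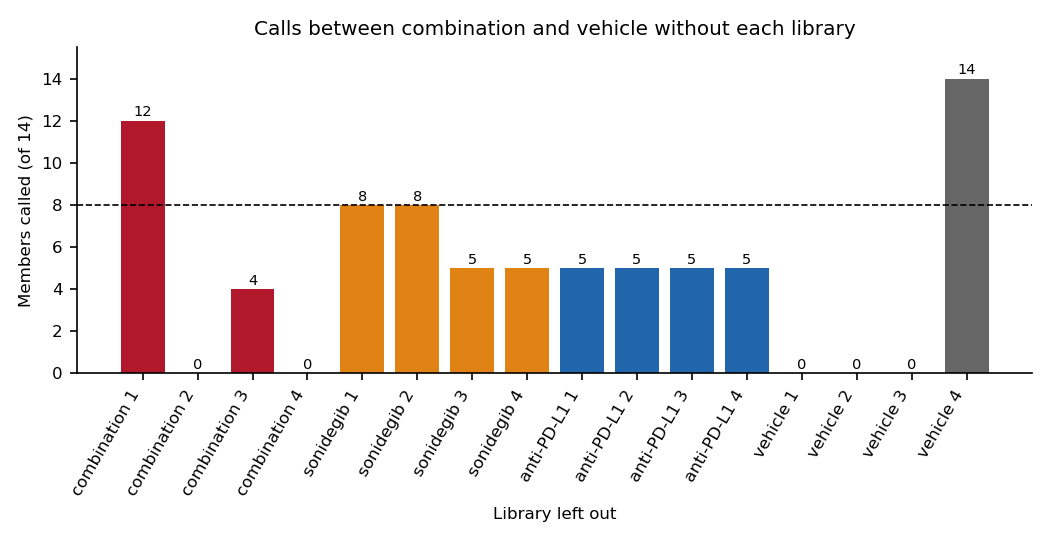
Number of the 14 tested members called between combination and vehicle (y axis) when the library on the x axis is left out, with a dashed line at the 8 called with all libraries. The count was 0 for 5 of the libraries, where 3 to 10 of all genes were called, and 14 without vehicle replicate 4, where 4953 were.

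The summed FPKM of the 13 mRNAs was 12620, 41949, 14152 and 38524 in combination replicates 1 to 4, 17726, 9435, 12171 and 12057 in the sonidegib libraries, 14800, 14528, 13714 and 9529 in the anti-PD-L1 libraries, and 7904, 3846, 3552 and 18642 in the vehicle libraries. The highest library thus held 11.8 times the lowest, and the groups overlapped. Single-drug libraries were the most even, with 12847 ± 3489 for sonidegib and 13143 ± 2453 for anti-PD-L1, against 26811 ± 15577 for the combination and 8486 ± 7056 for vehicle (SD, n = 4 each). Fragments of the 13 mRNAs made up an estimated 0.269 to 3.76% of a library. The sums and this share leave out what was listed under the nuclear copies. Those copies summed to 7768 to 25204 FPKM with the combination and 2498 to 11401 FPKM with vehicle.

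The members are poor in G and C, with a median GC content of 36.5% against 49.3% for all tested genes, and the libraries differed in how the level of nuclear genes followed GC content. The GC slope, the change of log2 deviation per unit of GC fraction over nuclear genes, was 2.15, -3.23, -2.82 and -3.87 in the combination libraries and 4.56, 3.30, 3.68 and -0.49 in the vehicle libraries. It lay between -2.10 and 2.72 with sonidegib and between -1.99 and 0.26 with anti-PD-L1. Combination replicates 2 and 4, with the highest mitochondrial sums, had the most negative slopes, and vehicle replicates 1, 2 and 3, with the lowest sums, had the most positive. After each library's trend with GC content was removed, 1 member was called between combination and vehicle, mt-Atp8 (2.15, SE 0.54, limma adjusted p = 0.0408), and the members' median was 1.09. With trends of GC content and length removed, no member was called, 8 had an unadjusted p under 0.05, as did 29.5% of all genes, and the median was 0.91. With the GC slope as a covariate, no member was called or reached an unadjusted p under 0.05, the median was 0.48 and mt-Nd4 was at -0.077. The part of library composition in the difference was not tested beyond these values.

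**Figure D5:**
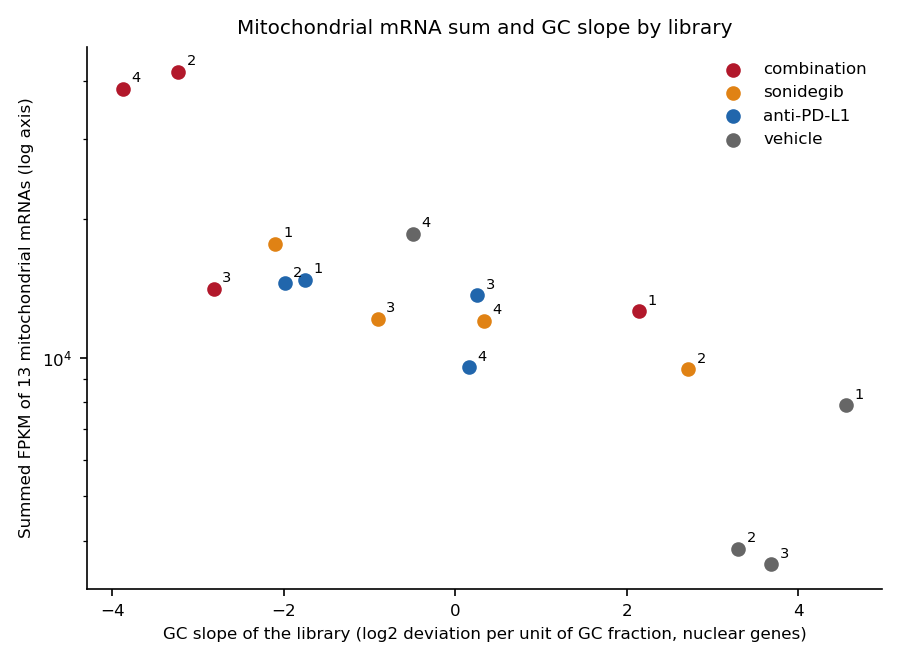
Summed FPKM of the 13 mitochondrial mRNAs (y axis, log) against the GC slope of the library (x axis, log2 deviation per unit of GC fraction), with 1 point per library, coloured by group and numbered by replicate. Combination replicates 2 and 4 lie at the upper left, and vehicle replicates 1, 2 and 3 at the lower right.

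Neither drug alone gave a called member. With sonidegib, 0 of 14 members passed against 0% of all tested genes, and 2 members had an unadjusted p under 0.05, as did 27.3% of all genes. The members' median difference from vehicle was 0.56, against 0.33 for all genes, and mt-Co2 had the largest, at 1.48 (SE 0.60, limma adjusted p = 0.144). With anti-PD-L1, 0 of 14 passed against 0% of all genes, and 3 members had an unadjusted p under 0.05, as did 24.6% of all genes. The median was 0.67, against 0.30 for all genes, and mt-Co2 was again largest at 1.54 (SE 0.60, limma adjusted p = 0.158). Leaving out vehicle replicate 4 gave 4 called members with sonidegib, beside 26.5% of all genes, and 6 with anti-PD-L1, beside 26.2%. With the GC slope as a covariate the members' medians were -0.064 with sonidegib, where 8 of 14 differences were negative, and -0.085 with anti-PD-L1, where 10 were. With median-of-ratios scaling the medians were 0.12 with sonidegib, with 6 negative, and 0.26 with anti-PD-L1, with 4 negative, and the medians of all genes were 0.012 and -0.00083. All these comparisons share the vehicle libraries.

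No member passed the limma test between the combination and either single drug. Against sonidegib, 0 of 14 members passed, as did 0% of all genes, the members' median was 1.01 against -0.07 for all genes, and 7 members had an unadjusted p under 0.05, as did 4.28% of all genes. Against anti-PD-L1, 0 of 14 passed and 0.00662% of all genes, the medians were 0.80 and -0.05, and 4 members had an unadjusted p under 0.05, as did 5.78% of all genes. The differences of mt-Atp8 were 1.65 from sonidegib (SE 0.60, limma adjusted p = 0.959) and 1.48 from anti-PD-L1 (SE 0.60, limma adjusted p = 0.820). All 4 combination values of mt-Atp8 lay above the 4 anti-PD-L1 values, as for 1.36% of all genes, and all 4 of mt-Rnr1 lay above the 4 sonidegib values, as for 0.483%. No other member had such a gap in these comparisons. Without combination replicates 2 and 4 the members' medians were 0.24 from sonidegib and 0.090 from anti-PD-L1. Sonidegib and anti-PD-L1 gave 0 of 14 members and 0% of all genes, none of the members at an unadjusted p under 0.05, and a median difference of -0.13. The interaction of the drugs gave 0 of 14 members and 0.00662% of all genes, none of the members at an unadjusted p under 0.05. Across the 4 groups 0 of 14 members passed, against 0.0199% of all genes, with adjusted p-values of 0.162 to 0.298. An unadjusted p under 0.05 was reached by 9 members and by 23.7% of all genes. The number called was 12, beside 22.2% of all genes, without vehicle replicate 4 and 4, beside 12.2%, without combination replicate 1.

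The ribosomal RNAs are described apart here, although mt-Rnr1 was counted among the 14 members. The labels describe the libraries as depleted of ribosomal RNA while another label names polyadenylated RNA. Which holds was not resolved, and the levels of both ribosomal RNAs beside the mRNAs can depend on it. The small-subunit RNA mt-Rnr1 was at 1958, 3003, 1185 and 2454 FPKM in the combination libraries, 1174, 1079, 890 and 847 FPKM with sonidegib, 1028, 1160, 1402 and 857 FPKM with anti-PD-L1, and 1166, 497, 356 and 2805 FPKM with vehicle. The large-subunit RNA mt-Rnr2 was at 8963, 0, 6157 and 0 FPKM in the combination libraries, 6828, 5313, 4682 and 4566 FPKM with sonidegib, 5818, 6475, 6753 and 4980 FPKM with anti-PD-L1, and 5940, 3089, 2542 and 11986 FPKM with vehicle. Its zeros fell in combination replicates 2 and 4, the libraries with the highest mRNA sums. Among the 84 genes with a median of at least 1000 FPKM, 5 were listed at 0 in at least 1 library, so that such a zero can be a failed estimate, and mt-Rnr2 is not counted among the 14 members. With its zeros taken as missing, a choice made after seeing the data, its difference between combination and vehicle was 0.61 (SE 0.57, limma adjusted p = 0.471). In the 14 libraries with both, mt-Rnr1 was 0.140 to 0.234 times mt-Rnr2. Relative to its neighbour mt-Nd1, mt-Rnr2 stood at 6.19 ± 1.63 with the combination (SD, n = 2), 5.31 ± 1.19 with sonidegib, 5.47 ± 0.546 with anti-PD-L1 and 9.24 ± 1.83 with vehicle (SD, n = 4 each).

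Members that lie next to each other also kept different ratios, taken from the listed values without the nuclear copies. The ratios of both overlapping pairs and the shares by complex depend on how fragments were assigned to these copies. For mt-Atp6, the copy Gm10925 was listed at 0.962 to 1.02 times its FPKM. For the overlapping pair of ATP synthase subunits shown above, mt-Atp8 was 2.96 ± 0.0922 times mt-Atp6 with the combination, 2.05 ± 0.720 with sonidegib, 2.17 ± 0.511 with anti-PD-L1 and 1.46 ± 0.455 with vehicle (SD, n = 4 each). The combination ratios of 2.85 to 3.06 lay above the vehicle ratios of 0.890 to 1.95, and no test was made of this ratio. For the overlapping complex I pair, mt-Nd4l was 0.766 ± 0.0234 times mt-Nd4 with the combination and 0.687 ± 0.0885 with vehicle, and all 16 libraries fell between 0.576 and 0.845. Across the strands, mt-Nd6 was 0.139 ± 0.0687 times mt-Cytb with the combination, 0.164 ± 0.0352 with sonidegib, 0.160 ± 0.0589 with anti-PD-L1 and 0.387 ± 0.235 with vehicle, where it ran from 0.145 to 0.703. Relative to mt-Nd5, its other neighbour, it was at 0.954 ± 0.114 with the combination, 1.01 ± 0.188 with sonidegib and 0.934 ± 0.0789 with anti-PD-L1. With vehicle that ratio was 1.42 ± 0.673, with replicate 3 at 2.41. By complex, the 3 complex IV mRNAs made up 52.4 ± 1.51% of the mRNA sum with the combination, 61.7 ± 3.54% with sonidegib, 59.3 ± 4.79% with anti-PD-L1 and 54.7 ± 5.93% with vehicle. The 2 ATP synthase mRNAs made up 24.4 ± 0.661% with the combination, 16.8 ± 3.00% with sonidegib, 17.51 ± 3.498% with anti-PD-L1 and 20.0 ± 5.22% with vehicle. Complex I, with 7 mRNAs, made up 18.5 ± 1.38% with the combination and 21.4 ± 3.40% with vehicle, and mt-Cytb 4.70 ± 0.874% with the combination and 3.87 ± 1.09% with vehicle (SD, n = 4 each).

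The nuclear partners of these genes were read in the same limma fit, as counts between combination and vehicle beside the 10.3% of all genes called higher and their median of 0.26. Of 71 nuclear subunits of complexes I, III and IV and ATP synthase, 20 were called higher and 0 lower, with a median of 0.82. Examples were Ndufa5, a complex I subunit (2.12, SE 0.41, limma adjusted p = 0.0278), and Cox7b, a complex IV subunit (1.76, SE 0.43, limma adjusted p = 0.0342). Of the 4 subunits of complex II, which has no mitochondrially encoded part, 0 were called, with a median of 0.45. Of 81 proteins of the mitochondrial ribosome, 25 were called higher and 0 lower, with a median of 0.55, among them Mrpl42 (2.04, SE 0.45, limma adjusted p = 0.0342). Of 36 genes for mitochondrial transcription, RNA processing and DNA maintenance, 8 were called higher and 0 lower, with a median of 0.70. They included Slirp, which binds mitochondrial mRNAs (1.83, SE 0.40), Ssbp1, a single-strand DNA-binding protein of the organelle (1.62, SE 0.40), and Tfb2m, a mitochondrial transcription factor (1.16, SE 0.32). Of 13 regulators of mitochondrial biogenesis, 0 were called higher and 1 lower, the coactivator Pprc1 (-0.73, SE 0.23, limma adjusted p = 0.0456), with a median of 0.23. Of the 10 tested nuclear copies of mitochondrial sequence, 6 were called higher, with a median of 1.73. Near-identical copies cannot be told apart from the members they match, so their calls are not a separate result. The difference was 2.23 for both Gm28661 and mt-Co2. None of the calls in these lists held without combination replicates 2 and 4, where no gene was called.

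Markers of other cells are given beside the same 10.3% of all genes called higher, and their part in the mitochondrial difference was not tested. Of 12 fibroblast markers 6 were called higher with the combination than with vehicle, and their summed level was 204 to 532 FPKM with the combination and 145 to 197 FPKM with vehicle. Of 12 T cell markers 4 passed the filter and 3 of these were called higher, with sums of 4.42 to 27.8 FPKM with the combination and 2.81 to 5.93 FPKM with vehicle. Of 12 macrophage markers 2 were called higher, with sums of 377 to 578 FPKM with the combination and 226 to 385 FPKM with vehicle. Of 10 adipocyte markers 3 passed the filter and 1, Fabp4, was called higher. The sums were 10.2 to 148 FPKM with the combination and 1.27 to 17.9 FPKM with vehicle, and Ucp1, which marks brown fat, stayed at or below 0.0774 FPKM in all libraries. None of the 16 markers of skeletal muscle, a tissue rich in mitochondria, was called, with sums of 16.7 to 486 FPKM with the combination and 12.9 to 317 FPKM with vehicle. None of 11 mammary epithelial markers was called, with sums of 972 to 2077 FPKM with the combination and 600 to 2598 FPKM with vehicle, and none of 5 tested red blood cell markers. Among signs of RNA quality, 0 of 14 nuclear-retained or unpolyadenylated RNAs were called, with a median of -0.27. Of 3 genes of the ribosomal RNA locus 1, AY036118, was called higher, and the median was -0.76. Its mean was 2681 FPKM with the combination, 1372 FPKM with sonidegib, 2.6e-05 FPKM with anti-PD-L1 and 53.9 ± 108 FPKM (SD) with vehicle. Values this close to 0 limit what its call can show. The summed level of the 3 genes had a median of 6355 FPKM with the combination and 7710 FPKM with vehicle.

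The named nuclear genes whose levels most resembled the summed mitochondrial mRNAs over the 16 libraries, by Pearson's r on the log2 scale, were Fcf1 (0.965), Med21 (0.964), Apool (0.964), Slirp (0.959), Zfp560 (0.956), Pdzd9 (0.955), Eny2 (0.953), Rpl7 (0.953), Uqcrb (0.953) and Eif3m (0.952). All 16 points share the groups and the GC slopes given above. These 10 genes had a median GC content of 40.8%, below the 49.3% of all tested genes. Before predicted genes were set apart, 4 of the 10 most similar genes of 15090 were nuclear copies of mitochondrial sequence.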

How the data were processed

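The authors deposited 1 table of FPKM values with 1 column for each of 16 libraries. TopHat and Cufflinks are listed in the submitters' processing notes, as are GRCm38.p6 and mm10. Not given in the sources used here are versions, the annotation and the treatment of fragments with several matches. Whole reads could not be recovered, so a depth estimate came from the smallest FPKM steps and no count test was run. Groups and replicate numbers follow the labels.

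The test took the 15105 genes that reached 1 FPKM in 4 or more libraries, as log2(FPKM + 1) with no further scaling, which understates the change of low genes. A model of group means was fitted to all 16 libraries with limma 3.58.1 (R 4.3.3, eBayes with trend and robust options). Tests were two-sided, with Benjamini-Hochberg adjustment over all genes at 0.05. The fit was tested on simulated data. Sums, shares and ratios of members are descriptions. Lists are described by counts and medians, printed beside those of all genes, and listed genes without a value were not analysed here.

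All 37 identifiers matched GENCODE M21, whose transcripts gave coordinates, lengths, GC content and sequences. Nuclear copies were sought with blastn 2.17.0 among those transcripts, at 95% identity or more over at least 100 bases, and the rest of the nuclear genome was not searched. Tables were made with Python 3.11.15, pandas 2.3.3 and biopython 1.88.

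Members and gene lists were chosen with earlier results of these data known. The rule names the mRNAs and rRNAs one by one and gives the tRNAs by counts. From each list, up to 4 called genes with the largest difference are examples. The 10 genes most like the mRNA sum by Pearson's r are named, predicted genes set apart. Other settings were quantile normalization, median-of-ratios scaling, rescaling without mitochondrial fragments, a pseudocount of 0.1, other filters, a fit of the compared libraries alone, GC and length corrections, a replicate block and each library left out. Leaving out combination replicates 2 and 4, taking zeros of mt-Rnr2 as missing and adding nuclear copies were settings chosen after seeing the data.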

Additional observations from a re-analysis of the deposited data

Results flagged for a closer look

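In groups of 4 libraries, a value was singled out when its gap to the nearest other library exceeded Dixon's critical share of the group's range, which chance gives in about 1 in 20 groups. Of 60 groups, 1 for each of 15 members and 4 treatments, 2 met this. That is not above this rate, and the members share libraries. The level of mt-Nd2 in sonidegib replicate 1 was 207 FPKM, far above the other 3 sonidegib libraries. The level of mt-Nd6 in vehicle replicate 4 was 129 FPKM, far above the other 3 vehicle libraries.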

How the results depend on the processing

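The 8 members called between combination and vehicle became 3 with quantile normalization, 1 with the GC trend removed, and 0 with no filter, with only the libraries compared, with GC and length trends removed, with the GC slope as a covariate, and, chosen after seeing the data, with combination replicates 2 and 4 left out. Leaving out 1 library gave 0 to 14. The count was 8 with rescaling, with a pseudocount of 0.1, and with a filter on the mean, and 7 with median-of-ratios scaling or with nuclear copies added. Copies were added as FPKM without weighting by length. For the partial copies of mt-Co1 and mt-Nd4, the sum is thus not the level with fragments returned to the member. Leaving out 1 library gave 0 to 4 members with sonidegib, 0 to 6 with anti-PD-L1 and 0 to 12 across the 4 groups, and 0 in the other comparisons. The highest counts came without vehicle replicate 4, where 3980, 3929 and 3331 genes of the whole table were called in these 3 comparisons. The cause of these shifts was not tested.

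The 1703 genes of the whole table called between combination and vehicle numbered 2772 after median-of-ratios scaling, 2634 after quantile normalization, 622 with the GC trend removed, 23 with GC and length trends removed, 25 with only the libraries compared, 8 with no filter, 0 with the covariate, and 3 to 4953 without 1 library. Only some single-gene results were followed by name through the settings. Among these, mt-Nd4 changed direction once the GC slope was fitted (combination minus vehicle, -0.077). In the same fit mt-Atp8 turned (sonidegib minus vehicle, -0.0375, and anti-PD-L1 minus vehicle, -0.14). There, 8 of 14 sonidegib differences and 10 of 14 anti-PD-L1 differences from vehicle were negative. Leaving out combination replicates 2 and 4 turned mt-Co2 (combination minus anti-PD-L1, -0.0524). In that setting 6 of 14 members were lower with the combination than with anti-PD-L1, and 2 of 14 lower than with sonidegib. A replicate block gave 6 members and 1177 genes. Deviations of libraries from different groups had correlations of -0.434 to 0.343 where they share a number. Where the numbers differ, the correlations were -0.457 to 0.475. These values show no pairing by number but cannot exclude one. The interaction and the test across groups use all libraries and had no fit of the compared libraries alone. The lowest value of mt-Nd4l rests on about 335 fragments by the depth estimate.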
